A study of Mus musculus with 9 samples.

Results

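EZH2 peaks that overlapped N-MYC and carried no Polycomb feature made up 5685 of the 18730 EZH2 peaks called in MYCN-driven T-cell lymphoma cells, or 30.4% (95% Wilson interval 29.7 to 31.0%). They were selected on the peak lists themselves. A peak was a member if it lay on chromosomes 1 to 19, X or Y, overlapped an N-MYC peak by at least 1 bp, and overlapped no SUZ12 and no H3K27me3 peak. The presence of N-MYC and the absence of both Polycomb features are therefore the rule and not a result. The lymphoma cells came from the thymus of C57BL/6J mice, and all libraries were made from such cells, so there was no normal thymus or untreated group. One library was sequenced for each of 7 antibodies (EZH2, SUZ12, H3K27me3, N-MYC, p300, H3K27ac and H3K4me3), and 2 input libraries without antibody were not analysed here. By its title, the series asks about EZH2 as an activator of transcription in T-cell lymphoma. The labels do not say how MYCN was driven, the age or sex of the mice, or which animal each immunoprecipitation came from.

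EZH2 is the enzyme subunit of Polycomb repressive complex 2 (PRC2), which also contains SUZ12 and EED and places methyl groups on lysine 27 of histone H3. Fully methylated H3K27 (H3K27me3) marks silent developmental genes. N-MYC is a transcription factor that pairs with MAX and binds E-boxes, of which the palindrome CACGTG is the canonical form, at promoters of genes for ribosomes, metabolism and the cell cycle. The acetyltransferase p300 acetylates the same lysine to H3K27ac, found at active enhancers and promoters, and H3K4me3 marks promoters in use.

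Active T-cell chromatin was present in the libraries. All 10 T-cell markers with a listed gene start, Bcl11b, Cd247, Cd3d, Cd3e, Cd3g, Cd5, Lat, Lck, Tcf7 and Zap70, had H3K4me3 and H3K27ac peaks within 1 kb of it. H3K4me3 was called at 1 of 3 B-cell markers (Cd79a, fold enrichment 4.74), at 0 of 5 myeloid markers, and at 1 of 5 markers of thymic epithelium and stroma (Epcam, 19.3). H3K27ac was called at the same B-cell marker, at 1 of 5 myeloid markers (Itgam) and at 2 of 5 markers of epithelium and stroma (Epcam and Foxn1). The share of other cells in the samples was not tested. List lengths ran from 9798 peaks for N-MYC to 123056 for H3K27me3. Every list ended at a q-value of about 0.01, so where a peak is lacking the signal may still lie under that limit. Read depth is unknown. With 1 library per antibody no difference has a replicate check, and the intervals here reflect the number of peaks counted and take each peak as independent.

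The promoters of 6 genes with a member peak are printed to show where an E-box can lie at such a peak. They were picked from the strongest member and from the translation, ribosome-assembly and MYC-network genes described further on, after their values were seen, among 14 of 74 named genes with CACGTG in the promoter. Each run is 300 bases of RefSeq sequence (GRCm38.p6, the build mm10/GRCm38 of the peaks), from 250 bases before to 50 bases after a gene start, 5′ to 3′ on the gene's strand, and capitals mark CACGTG. Positions count from the start, which is base 0. Eif5a (chr11:69920581-69920880, minus strand) encodes a translation elongation factor. Eif4a1 (chr11:69672374-69672673, minus strand) encodes the helicase of the cap-binding complex. Eif3a (chr19:60790644-60790943, minus strand) encodes the largest subunit of an initiation factor, and Wdr43 (chr17:71615965-71616264, plus strand) a nucleolar protein of small-subunit assembly. Max (chr12:76962199-76962498, minus strand) encodes the partner of N-MYC, and Mnt (chr11:74830674-74830973, plus strand) a repressor that competes for MAX.
Eif5a: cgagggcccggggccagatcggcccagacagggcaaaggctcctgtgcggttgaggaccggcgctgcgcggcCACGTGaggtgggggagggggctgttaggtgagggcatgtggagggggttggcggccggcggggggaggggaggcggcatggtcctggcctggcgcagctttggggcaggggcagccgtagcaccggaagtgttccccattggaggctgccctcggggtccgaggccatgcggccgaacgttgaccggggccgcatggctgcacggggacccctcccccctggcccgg
Eif4a1: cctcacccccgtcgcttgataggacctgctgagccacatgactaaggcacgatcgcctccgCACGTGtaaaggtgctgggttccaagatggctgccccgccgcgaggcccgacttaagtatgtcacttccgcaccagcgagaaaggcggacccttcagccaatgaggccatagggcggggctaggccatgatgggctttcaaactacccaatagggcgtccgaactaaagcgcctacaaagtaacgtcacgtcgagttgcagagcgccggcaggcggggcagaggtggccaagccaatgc
Eif3a: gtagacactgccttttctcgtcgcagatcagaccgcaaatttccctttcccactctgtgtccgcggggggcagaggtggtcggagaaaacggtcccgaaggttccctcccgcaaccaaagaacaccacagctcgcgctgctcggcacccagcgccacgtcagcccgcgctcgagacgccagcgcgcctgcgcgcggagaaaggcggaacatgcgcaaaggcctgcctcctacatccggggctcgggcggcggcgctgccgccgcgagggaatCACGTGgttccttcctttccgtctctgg
Wdr43: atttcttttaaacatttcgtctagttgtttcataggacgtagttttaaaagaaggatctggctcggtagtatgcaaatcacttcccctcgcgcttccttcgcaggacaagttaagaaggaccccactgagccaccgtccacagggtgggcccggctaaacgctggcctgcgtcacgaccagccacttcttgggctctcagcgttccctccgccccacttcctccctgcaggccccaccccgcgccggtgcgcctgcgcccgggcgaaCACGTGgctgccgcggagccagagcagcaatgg
Max: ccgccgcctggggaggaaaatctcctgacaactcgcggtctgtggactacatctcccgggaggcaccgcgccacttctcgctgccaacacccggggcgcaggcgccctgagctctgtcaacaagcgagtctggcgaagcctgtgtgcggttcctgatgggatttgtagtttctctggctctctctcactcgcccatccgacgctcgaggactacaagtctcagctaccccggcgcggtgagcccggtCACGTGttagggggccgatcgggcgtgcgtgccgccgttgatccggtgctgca
Mnt: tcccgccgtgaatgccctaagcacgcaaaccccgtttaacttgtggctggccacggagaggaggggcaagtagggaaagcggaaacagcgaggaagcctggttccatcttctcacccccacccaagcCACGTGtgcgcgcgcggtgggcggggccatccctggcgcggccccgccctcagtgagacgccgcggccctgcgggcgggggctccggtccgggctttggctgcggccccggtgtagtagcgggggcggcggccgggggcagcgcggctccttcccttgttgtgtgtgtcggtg

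In Wdr43 the E-box began at position 17, the N-MYC summit was at 37 and the EZH2 summit at 321. Eif3a had the same order, with the E-box at 22, N-MYC at 43 and EZH2 at 241. In Eif4a1 the E-box lay 189 bases upstream, the N-MYC summit at -184 and the EZH2 summit at 649. In these 3 promoters N-MYC peaked close to the motif and EZH2 well downstream of it. Max had its E-box 3 bases before the start, its N-MYC summit at -95 and its EZH2 summit at 433, and Mnt had them at -123, -183 and 479. Eif5a, the strongest member of all, departed from the pattern at the printed start. Its E-box lay 178 bases upstream, its N-MYC summit at -3 and its EZH2 summit at -391, on the upstream side. The gene has 6 listed starts, however, and the same EZH2 summit lay 64 bp from the nearest listed start. The placement at Eif5a thus depends on the start used.

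Over all listed promoters, 7.84% held CACGTG (1666 of 21263). The share was 12.2% (640 of 5241; interval 11.4 to 13.1%) for promoters with a member within 1 kb. It was 8.85% (7.45 to 10.5%) where the start had an EZH2 peak with p300 and without N-MYC or Polycomb features, and 9.29% over all H3K4me3 promoters without a member. Promoters with N-MYC and H3K4me3 but no EZH2 peak reached 15.3% (13.3 to 17.4%), which was above the member promoters. EZH2 promoters with SUZ12 and H3K27me3 had 7.06%, close to all promoters. The variant E-box CACGCG (searched on both strands, as CACGCG or CGCGTG, which overlap each other where CACGCG runs on into TG) was present in 24.6% of member promoters (23.5 to 25.8%) and 12.1% of all promoters. Promoters with N-MYC and H3K4me3 but no EZH2 peak had it in 21.9% (19.6 to 24.3%), an interval that overlaps that of the members. The share was 12.5% at the p300 promoters without N-MYC, 14.1% over H3K4me3 promoters without a member and 17.4% with SUZ12 and H3K27me3. Both motifs contain CpG, and member promoters had a median of 26 CpG dinucleotides against 13 over all promoters and 20 at the N-MYC promoters without EZH2. The part of CpG content in the motif shares was not tested.

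Within the member promoters the E-box share was higher at stronger N-MYC peaks and showed no such order with EZH2. Promoters were put in 4 equal groups by the N-MYC fold enrichment at their strongest member. CACGTG was held by 9.23, 10.4, 12.5 and 16.7% of them from the lowest group to the highest, and the intervals of the outer groups did not overlap (7.78 to 10.9% against 14.8 to 18.8%). CACGCG went from 17.9 to 32.7% over the same groups, and median CpG from 24 to 30. Grouped by EZH2 fold enrichment the CACGTG shares were 11.4, 14.0, 11.7 and 11.7%, with overlapping intervals, while median CpG also went from 24 to 30. At 638 members with an E-box in a listed promoter, the median distance from the motif to the N-MYC summit was 101.5 bp and to the EZH2 summit 375.5 bp, and N-MYC was nearer in 84.3%. The promoter window reaches only 50 bases downstream of the start, which limits the motifs that could lie near a downstream summit.

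Member peaks were wider than the other EZH2 peaks without Polycomb features. Their median width was 673 bp, with the middle 50% between 419 and 983 bp and the widest at 4554 bp. EZH2 peaks with p300 but neither N-MYC nor Polycomb features (1922 peaks) had a median of 425 bp, and those with neither N-MYC nor p300 (1005 peaks) 297 bp. Peaks with SUZ12 and H3K27me3 (8374 peaks) had a median of 557 bp but a long tail: 34.9% of them reached 1 kb, against 24.1% of member peaks (1371 peaks), and the widest was 63438 bp. Member peaks thus spanned a narrower range of sizes than the Polycomb peaks, without their broad domains. Fold enrichment, the linear ratio of signal over background in the authors' lists, had a median of 5.63 at member peaks (middle 50% 4.58 to 7.02), 4.64 at Polycomb peaks and 4.83 at the p300 peaks without N-MYC. The highest value was 13.6 among members and 28.8 among the Polycomb peaks. A wider peak has more bases in which to meet an N-MYC peak, so width is not wholly independent of the rule. All EZH2 peaks without Polycomb features were therefore split by width into 4 equal groups, of which members made up 42.0% of the narrowest (200 to 327 bp) and 88.1% of the widest (867 to 4554 bp).

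**Figure D1:**
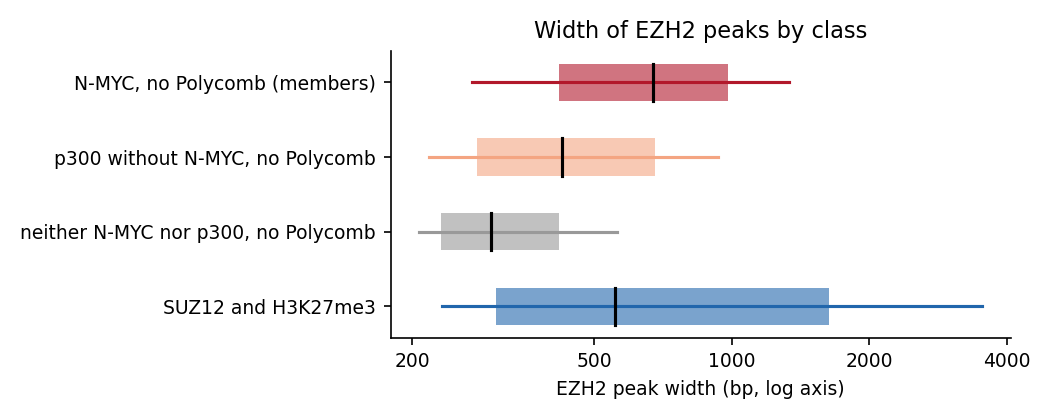
Width of EZH2 peaks in 4 classes on a log axis in bp. The black line is the median, the box the middle 50% of peaks and the thin line the range from the 10th to the 90th percentile. Member peaks have the highest median (673 bp), and peaks with SUZ12 and H3K27me3 extend furthest to the right.

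The marks that the rule did not use were those of active promoters. H3K27ac overlapped 99.6% of member peaks (5664 of 5685; interval 99.4 to 99.8%), H3K4me3 99.5% (5656; 99.3 to 99.6%) and p300 95.4% (5422; 94.8 to 95.9%). All 3 were present at 5401 members. EZH2 peaks with p300 but without N-MYC had nearly the same shares of H3K27ac (99.3%) and H3K4me3 (99.6%), and peaks with neither N-MYC nor p300 had 68.3 and 68.1%. At peaks with SUZ12 and H3K27me3 the shares were 2.48% for p300, 8.02% for H3K27ac and 16.1% for H3K4me3. The p300 share differed between members and the 2927 other EZH2 peaks without Polycomb features at every width: over the same 4 width groups it ran from 88.8 to 99.2% for members, and from 53.2 to 94.2% for the others.

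**Figure D2:**
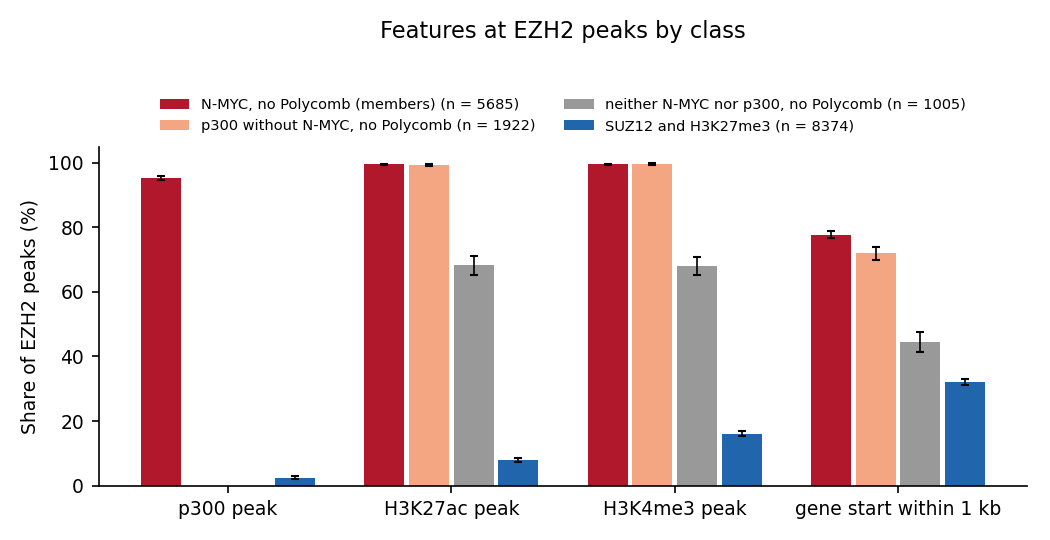
Share of EZH2 peaks in 4 classes that overlap a p300, H3K27ac or H3K4me3 peak or lie within 1 kb of a listed protein-coding gene start, in percent. Error bars are 95% Wilson intervals. The p300 bars are left out where p300 defines the class; members reach 95.4% for p300 and over 99% for both histone marks, and peaks with SUZ12 and H3K27me3 stay at or under 32.0% for all 4 features.

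The H3K4me3 and H3K27ac peaks at members were stronger and wider than their lists at large, but close to those at EZH2 peaks with p300 and without N-MYC. The H3K4me3 peak at a member had a median fold enrichment of 31.7 and a median width of 3006 bp, against 30.6 and 2997.5 bp at the p300 peaks without N-MYC and 15.5 and 1655 bp over the whole H3K4me3 list. The H3K27ac peak had a median fold of 16.0 and a width of 2451 bp, against 13.9 and 2430 bp at the p300 peaks without N-MYC and 4.04 and 414 bp over its list. For p300 the medians were 5.77 and 1316.5 bp, against 4.90 and 897 bp, and for N-MYC 6.36 and 662 bp. The median width of members, 673 bp, was thus close to that of the N-MYC peaks, and the overlapping H3K27ac and H3K4me3 peaks had larger medians. Widths were not compared peak by peak. The part of peak width in these medians was not tested. The median distance from a member to the nearest SUZ12 or H3K27me3 peak was 44069 bp, and 82.1% of members lay more than 10 kb from any.

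Members without an active mark were few and narrow. The 263 without p300 had a median width of 377 bp and a median EZH2 fold of 4.64. Their strongest examples lay at the starts or ends of Nipsnap2 (EZH2 fold 10.5), Rab12 (8.80), Nhlrc2 (8.80), Spopl (8.41) and Cntln (8.01), each with H3K27ac and H3K4me3. The 21 without H3K27ac had a median width of 284 bp, and 5 of them lay near a listed start. None of the 29 without H3K4me3 lay within 1 kb of a listed start. The strongest of those had its nearest listed start 25593 bp away, at Dad1, a glycosylation gene beside the T-cell receptor alpha locus, with H3K27ac at 20.3 and p300 at 5.59. The member of lowest EZH2 fold (1.88) had Csmd1 as the nearest gene, 372398 bp away, with N-MYC at 1.95 and no H3K27ac or H3K4me3 peak. Only 6 members lacked all 3 active features.

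Most members lay at gene starts. A listed protein-coding start was within 1 kb of 77.7% of members (4420 of 5685; interval 76.6 to 78.8%), and within 250 bp of 71.5%. The share was 72.0% for EZH2 peaks with p300 and without N-MYC, 44.6% for those with neither and 32.0% for peaks with SUZ12 and H3K27me3. Starts were listed for 17492 of 21887 protein-coding genes and for none on chromosome 18. With either end of any protein-coding gene in place of the listed starts the share was 84.3%, and with any RefSeq gene, non-coding genes included, 88.2%. Only 249 members lay over 5 kb from both ends of every RefSeq gene, and 216 of these were inside a gene. Of those 249 members, 96.4% overlapped H3K27ac and 92.0% H3K4me3. Exons and introns were not analysed here. Of the 4420 members near a listed start, 630 (14.3%) were near starts on both strands.

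EZH2 summits at member promoters lay downstream of the gene start, with the histone marks, and not on the N-MYC summit. At 3255 members near exactly 1 listed start, the median EZH2 summit position was 280 bp downstream, 86.5% of summits were downstream, and 67.5% lay between 100 and 500 bp downstream. The H3K27ac summit had the same median, 280 bp, and H3K4me3 342 bp. The N-MYC summit was centred on the start, with a median of 21 bp and 40.2% of summits within 100 bp, and p300 likewise, with a median of 4 bp and 30.4% within 100 bp. For EZH2 only 6.36% of summits, and for H3K27ac 3.32%, fell within 100 bp of the start. This placement was not particular to the members, since EZH2 peaks with p300 and without N-MYC had a median of 285 bp with 62.8% between 100 and 500 bp, and those with neither 281 bp with 58.5%. At starts with SUZ12 and H3K27me3 the EZH2 summits were more scattered, with the middle 50% from -228 to 640 bp and 28.9% between 100 and 500 bp downstream.

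**Figure D3:**
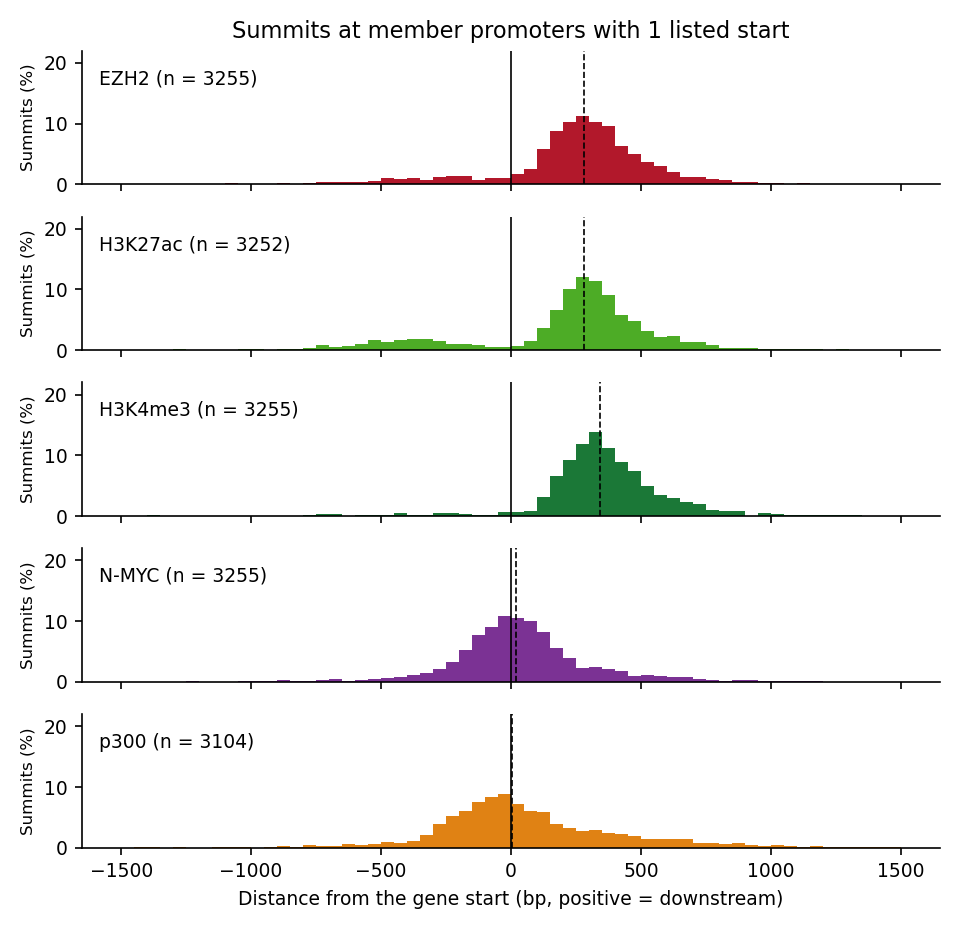
Distance from the gene start of the EZH2 summit and of the summit of the strongest overlapping H3K27ac, H3K4me3, N-MYC and p300 peak at members near exactly 1 listed start, in bp with positive values downstream. Bars are percent of summits in bins of 50 bp, the solid line is the start and the dashed line the median. EZH2, H3K27ac and H3K4me3 peak 280 to 342 bp downstream, and N-MYC and p300 around the start.

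The overlap of EZH2 and N-MYC was accordingly often partial. The median overlap was 344 bp, or 58.6% of the member's width. The EZH2 summit lay inside an N-MYC peak at 64.0% of members and the N-MYC summit inside the member at 60.1%. Members shared N-MYC peaks: 5685 members used 5528 N-MYC peaks, 531 N-MYC peaks served 2 or more members, and 361 members had 2 or more N-MYC peaks. They also fell into 5010 H3K4me3 peaks, of which 579 held exactly 2 members. Where such a pair had 1 listed start inside the H3K4me3 peak (276 pairs), the members lay on either side of it in 202 (73.2%), with median summits at -303 and 436.5 bp. Members at one promoter are thus not independent of each other.

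At the threshold of the rule, 85 members overlapped N-MYC by 20 bp or less and 75 EZH2 peaks without Polycomb features missed an N-MYC peak by 1 to 20 bp. The groups just inside and just outside had median widths of 351 and 344 bp, the same median EZH2 fold of 4.44, and p300 at 82.4 and 89.3%. On the other side of the rule, 360 EZH2 peaks overlapped N-MYC and also a SUZ12 or H3K27me3 peak. Those had a median width of 1368 bp, p300 at 51.7% and H3K27ac at 72.2%.

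The member of highest EZH2 fold, at Eif5a, was 1485 bp wide with an EZH2 fold of 13.6, N-MYC 11.6, p300 5.98, H3K27ac 23.9 and H3K4me3 48.9. Next were members at Rsf1, a chromatin-remodelling factor (13.6), Ube2q2, a ubiquitin-conjugating enzyme (13.6), Rsbn1l (13.5), Arid1a, a subunit of the BAF remodelling complex (13.4), and Anp32b, an acidic nuclear histone chaperone (13.0). Khdrbs1, an RNA-binding protein, Kmt2e, a reader of H3K4me3, Clk4, a kinase of splicing factors, and Wapl, which releases cohesin, tied at 12.6. All 10 of these peaks carried p300, H3K27ac and H3K4me3. The H3K4me3 peak at the Kmt2e member (56.1) was the highest of the whole H3K4me3 list.

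The members at the strongest N-MYC peaks were not those ranked highest by EZH2 fold, though some of them had high EZH2 folds. The upper quartile of EZH2 fold over all members was 7.02. How EZH2 and N-MYC fold were related over all members was not tested. Ran, the GTPase of nuclear transport, had the highest N-MYC fold at any member, 25.2, with members of EZH2 fold 8.36 and 2.58. Pcbp1, an RNA-binding protein, had N-MYC at 24.4 with members of 9.99 and 7.81, and Uck2, which phosphorylates uridine and cytidine, had 22.5 and 6.88. The widest members had EZH2 folds from 4.71 to 8.05, against a median of 5.63 over all members. The member at Cdk6, a G1 kinase, spanned 4554 bp (EZH2 fold 6.47), and that at Tcf7, the T-cell factor TCF1, 4103 bp (7.89), inside an H3K27ac peak of 13588 bp. The other three were at Anp32a (3583 bp), Fam78a (3291 bp) and Zc3h4 (3243 bp). Counted over gene bodies and starts, Ubtf, the RNA polymerase I factor, held 6 members, Tgif1 5, and Nr4a2, U2af2 and Zcchc2 4 each, whereas 4941 genes held exactly 1.

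Over all genes with a listed start, 4436 of 17492 had a member within 1 kb (25.4%). Over the 9119 genes with H3K4me3 at the start the share was 48.6%, and all 4436 were among them. These are the backgrounds for the gene lists, which are described by counts only. Genes with a member had a median H3K4me3 fold of 31.9, and H3K4me3 genes without one 19.7. From the lowest to the highest of 4 equal groups by H3K4me3 fold, the share of autosomal genes with a member was 8.24, 43.2, 65.7 and 81.3%. A list of strongly H3K4me3-marked genes would thus hold many members, and the median H3K4me3 fold of a list's marked genes is given where its members are counted, except for lists without a member.

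Genes of protein synthesis held members at most of their starts. For cytosolic ribosomal proteins it was 54 of 58 genes (93.1%, interval 83.6 to 97.3%; median H3K4me3 fold 36.1), and 53 of the 54 autosomal ones. The strongest were Rpl27a (EZH2 fold 10.8), Rps6 (10.8) and Rpl26 (10.6, with H3K27me3 at 4.76 also called within 1 kb). Rps27 had EZH2 (6.03) and p300 but no N-MYC peak, and the X-linked Rpl36a and Rpl39 had N-MYC (4.36 and 7.78) but no EZH2 peak. Nucleolar genes of ribosome assembly had members at 37 of 41 starts (H3K4me3 33.7), led by Wdr43 (10.6), Ubtf (10.1) and Emg1 (9.33). The exceptions included Grwd1, where EZH2 (17.0) came with SUZ12 (7.99) and H3K27me3 (13.4). Translation initiation and elongation factors had 28 of 33 (36.5), with Eif5a, Eif4a1 (11.4) and Eif3a (9.99) highest. Aminoacyl tRNA synthetases, which charge tRNAs, had 10 of 13 (31.4), led by Yars and Eprs (8.21 each), while Iars had N-MYC at 10.3 and no EZH2 peak.

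Chaperonins had members at 9 of 9 starts (H3K4me3 36.3), among them Cct8 (9.69), a subunit of the cytosolic folding ring. Hspd1 and Hspe1, the mitochondrial pair that shares a promoter, shared a member of 9.40. Splicing factors had 35 of 39 (34.1), led by Srsf1 and Srsf6 (10.2 each) and Srsf2 (9.69). Proteasome subunits had 17 of 25 (35.2), with an interval of 48.4 to 82.8% that holds the 48.6% of H3K4me3 genes. The other 8 all had an EZH2 peak that was not a member, such as Psmc1 (EZH2 8.01, no N-MYC peak). Mitochondrial ribosomal proteins had 45 of 69 (28.7; Mrps30 8.80, Mrpl48 8.41). Oxidative phosphorylation had 32 of 68 (32.3; Cox5a 8.60), or 49.2% of its H3K4me3 genes, which is near the background of 48.6%. The list's median H3K4me3 fold, 32.3, lay in the group from 26.6 to 33.8, where 65.7% of autosomal genes had a member. In that list 24 genes had EZH2 with neither N-MYC nor Polycomb features, for example Cox5b (6.78).

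**Figure D4:**
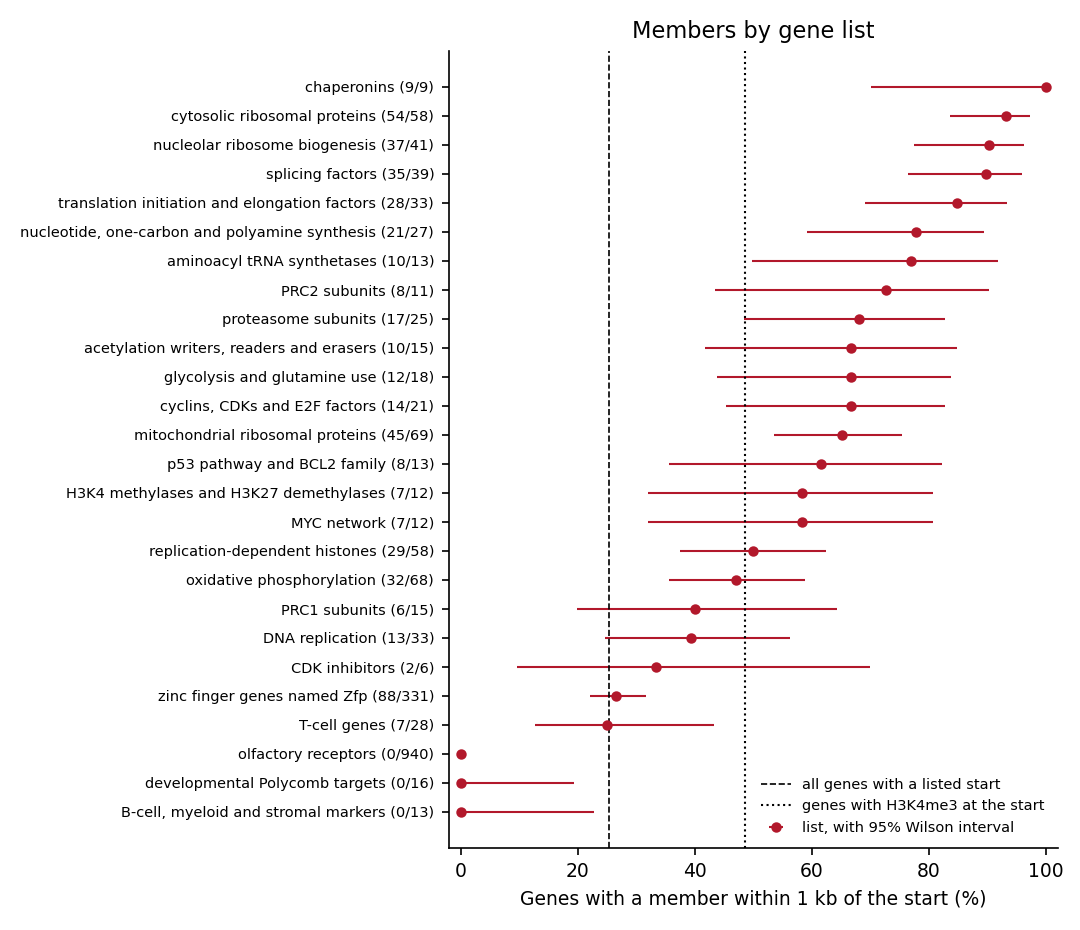
Share of genes in each list with a member within 1 kb of the start, in percent, with 95% Wilson intervals and the counts after each name. The dashed line is the share of all genes with a listed start (25.4%) and the dotted line that of H3K4me3 genes (48.6%). Cytosolic ribosomal, nucleolar, chaperonin and splicing lists lie above 89%. Developmental Polycomb targets, olfactory receptors and markers of other cell types lie at 0, and few of their genes had H3K4me3.

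Shares in the metabolic and growth lists ran from 39.4% for DNA replication to 77.8% for nucleotide, one-carbon and polyamine synthesis. The intervals of the glycolysis (43.7 to 83.7%) and cyclin (45.4 to 82.8%) lists hold the 48.6% of H3K4me3 genes. So do those of the DNA replication (24.7 to 56.3%) and histone (37.5 to 62.5%) lists. Nucleotide, one-carbon and polyamine synthesis had members at 21 of 27 starts (H3K4me3 32.6), led by Amd1 (9.99) of polyamine synthesis and Gmps (8.80) of guanine nucleotide synthesis, and all 27 starts had an N-MYC peak. Glycolysis and glutamine use had 12 of 18 (29.4), with Slc16a1, a lactate transporter (9.79), Gapdh (8.77) and Eno1 (8.60) highest, whereas Hk2 had N-MYC at 9.52 without EZH2. Cyclins, CDKs and E2F factors had 14 of 21 (33.7; Cdc25a 8.96, E2f3 8.33, Ccnt1 8.01). DNA replication was lower, at 13 of 33 (30.6), although all 33 genes had H3K4me3. Its median H3K4me3 fold lay in the group where 65.7% of autosomal genes had a member, which is above the interval of this list. Pcna had a member of 7.61 and Mcm7 of 6.34, whereas Cdc45 (EZH2 7.02) and Mcm3 (4.12) had no N-MYC peak and Mcm2 had N-MYC (6.50) without EZH2. Replication-dependent histones had 29 of 58 (H3K4me3 20.3), where neighbouring genes share members (H1f4 and H2bc6 the same peak, 6.62). N-MYC was called near 54 of those 58 starts.

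Among growth brakes and survival genes, members stood at 8 of 13 genes of the p53 pathway and BCL2 family (61.5%, interval 35.5 to 82.3%, H3K4me3 28.3). That interval holds the 48.6% of H3K4me3 genes. Mcl1, an anti-apoptotic protein, had the strongest, 12.2, followed by Mdm2, the ligase that degrades p53, with 9.81, Trp53 with 8.12 and Bcl2l1 with 7.33. Of 6 CDK inhibitors (H3K4me3 25.7), Cdkn1b (7.77) and Cdkn2c (5.03) had members. Cdkn1a, Cdkn2a and Cdkn2b had EZH2 with SUZ12 and H3K27me3 (EZH2 5.30, 14.2 and 4.40).

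The PRC2 genes had members at 8 of 11 starts (72.7%, interval 43.4 to 90.3%, H3K4me3 32.0), and this interval holds the 48.6% of H3K4me3 genes. Ezh2 had a member of 1300 bp with an EZH2 fold of 7.46, N-MYC 13.2, p300 6.26, H3K27ac 19.7 and H3K4me3 34.0, and no SUZ12 or H3K27me3 peak. Suz12 had 8.60 (N-MYC 10.2), Aebp2 8.33, Rbbp4 8.23, Mtf2 7.61, Eed 6.78, Jarid2 6.42 and Ezh1, the other catalytic subunit, 4.52. Phf1 and the X-linked Rbbp7 had N-MYC without EZH2, and Phf19 had EZH2 (3.15) without N-MYC. PRC1 genes had members at 6 of 15 starts (H3K4me3 24.7), among them Rnf2 (10.8), the ubiquitin ligase subunit. At 5 of the 15, EZH2 came with a Polycomb feature, among them Bmi1 (EZH2 25.5, SUZ12 16.5) and Cbx8 (24.8 and 18.4), which both also had an N-MYC peak.

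In the MYC network 7 of 12 starts had a member (58.3%, interval 32.0 to 80.7%, H3K4me3 25.7), and this interval holds the 48.6% of H3K4me3 genes. The members were at Mlxip (8.41), Max (6.73), Mnt (5.72), Mxi1 (4.99), Mxd4 (4.95), Mxd1 (4.24) and Mxd3 (3.43). The start of Mycn itself, by contrast, had EZH2 (7.81) with SUZ12 (6.93) and H3K27me3 (21.3) and none of N-MYC, p300, H3K27ac or H3K4me3 within 1 kb. Mycl also had EZH2 (8.27) with SUZ12 and H3K27me3. Mga had N-MYC at 11.4 without an EZH2 peak.

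Acetylation writers, readers and erasers had members at 10 of 15 starts (66.7%, interval 41.7 to 84.8%; H3K4me3 26.02), an interval that holds the 48.6% of H3K4me3 genes. They included Kat2b (10.6), Crebbp (10.5), Brd2 (9.24) and Ep300, which encodes p300 (7.31). Hdac2 had EZH2 (6.11) and N-MYC (4.32) near its start in peaks that did not overlap. H3K4 methylases and H3K27 demethylases had 7 of 12 (58.3%, 32.0 to 80.7%; H3K4me3 34.3), whose interval also holds 48.6%, led by Kmt2c (11.6), Kmt2d (10.6) and Kdm1a (9.24). The X-linked Kdm6a, an H3K27 demethylase, had EZH2 at 6.82 with no N-MYC peak.

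T-cell identity genes held members no more often than genes at large. A member stood at 7 of 28 starts, against 25.4% of all genes, and this was 30.4% of the 23 starts with H3K4me3 (median fold 30.4), against 48.6%. The members were at transcription factors, Tcf12 (EZH2 9.99), Tcf7 (7.89), Myb (7.81), Ikzf1 (5.61), Tcf3 (4.91) and Gata3 (4.44, with SUZ12 and H3K27me3 also called within 1 kb), and at the signalling kinase Zap70 (3.79). At the CD3 receptor genes Cd3d, Cd3e and Cd3g, EZH2 was called (6.62, 3.97 and 5.03) with p300, H3K27ac and H3K4me3 but without N-MYC. Cd5, Cd247 and Lat had EZH2 and N-MYC within 1 kb of the start but no member. Lef1 and Runx3 had EZH2 with SUZ12 and H3K27me3. No member was found at 13 B-cell, myeloid and stromal markers, at 16 developmental Polycomb targets (all 16 had EZH2 with a Polycomb feature) or at 940 olfactory receptor genes. H3K4me3 was called at only 2, 2 and 1 of these starts, and every gene with a member had H3K4me3. The rule also excludes EZH2 peaks with a Polycomb feature. The lack of members in these lists is therefore not a separate result. Zinc finger genes named Zfp had 88 of 331 (26.6%), which is 32.7% of those with H3K4me3 (median fold 23.8).

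Members were scarce on the X chromosome. Only 44 of 5685 (0.774%) lay there, and they reached 29 of its 295 H3K4me3 genes (9.83%, interval 6.93 to 13.8%), against 4407 of 8820 autosomal H3K4me3 genes. The 18 autosomes with listed starts ran from 43.0 to 58.1%, so X lay outside their range. N-MYC, p300 and EZH2 of any class were all lower there: N-MYC was called at 32.2% of X-linked H3K4me3 genes against 65.9% on autosomes, p300 at 36.6 against 78.8%, and EZH2 at 26.4 against 75.6%. Among these H3K4me3 genes H3K27ac was similar, at 90.2 and 93.5%. H3K4me3 was itself somewhat weaker on X, with a median fold of 22.6 against 26.8. Over all genes with a listed start, however, every list was called less often on X. H3K27ac stood at 33.3 against 53.8%, H3K4me3 at 36.1 against 53.6% and SUZ12 at 4.90 against 13.3%. X held 1.33% of all H3K27ac peaks and 1.28% of all EZH2 peaks, and the lists ran from 1.12% for p300 to 2.75% for H3K4me3. Over all genes the lower share on X was thus not confined to N-MYC, p300 and EZH2, whereas among H3K4me3 genes H3K27ac was similar. Within the 4 groups by H3K4me3 fold, a member stood at 0 of 94, 7.38% of 122, 27.3% of 66 and 15.4% of 13 X-linked genes, below the autosomal share in each. Among the listed genes with H3K4me3, 4 of 20 X-linked genes had a member against 407 of 598 autosomal ones (68.1%). On Y no member was found, and 4 genes there had H3K4me3. The number of X copies, the sex of the mice and the coverage of X were not tested.

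**Figure D5:**
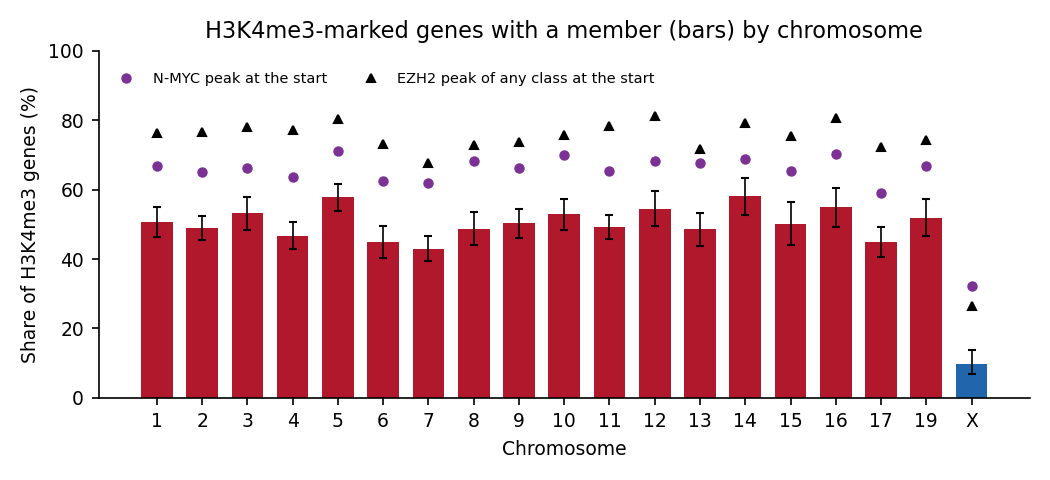
Share of H3K4me3-marked genes with a member by chromosome, in percent, with 95% Wilson intervals (bars, X in blue), and the share of the same genes with an N-MYC peak (circles) or any EZH2 peak (triangles). Chromosome 18 has no listed starts and Y, with 4 such genes, is not drawn. X stands at 9.83% and the autosomes between 43.0 and 58.1%.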

How the data were processed

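ChIPmentation libraries of thymic lymphoma cells were compared as peak lists, 1 per antibody. In this method a transposase inserts the sequencing adapters into chromatin held on the antibody. Bowtie2, SAMtools, MACS2, deepTools, FastQC and build mm10/GRCm38 are named in the submitters' processing notes, without versions. Whether the inputs served as controls is not given in the sources used here.

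The authors deposited for each peak a fold enrichment (a linear ratio over background), a p-value and a q-value as −log10 values, and a score, which was not used. Each list was made from 1 sample. Overlaps, widths, summit positions and 95% Wilson intervals were computed with Python 3.11.15, pandas 2.3.3, numpy 2.4.6 and scipy 1.17.1, and the overlap steps were tested on simulated data. Gene names, starts and promoter sequences came from RefSeq tables of GRCm38.p6. A gene had a peak when it lay within 1 kb of a listed start, and the strongest such peak gave its fold.

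The members and gene lists were chosen with earlier results of these data known, and the histone list pattern was adapted to the annotation. Named were the members of highest EZH2 or N-MYC fold, the widest, the strongest lacking a mark, 3 genes with and up to 3 without a member per list, and any gene of the PRC2, MYC, T-cell and chromatin-enzyme lists. Genes of the PRC1, p53 and BCL2 and CDK inhibitor lists beyond that number, and the member of lowest fold, were chosen after their values were seen. Alternatives varied the overlap, q-value, fold, list length, distance to Polycomb peaks and start window.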

Additional observations from a re-analysis of the deposited data

How the results depend on the processing

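Each of 8 shares or medians was recomputed under alternatives, 48 values in all, of which 17 stayed inside the counting interval of the reported value and 31 moved outside it. Requiring an overlap of 50% of the shorter peak gave members as 23.8% of EZH2 peaks, p300 at 92.5%, H3K27ac at 99.2%, H3K4me3 at 99.2%, a median width of 723 bp and 20.7% of genes. A q-value of at most 1e-05 in every list gave 33.7% members, p300 92.9%, H3K27ac 99.8%, H3K4me3 99.7%, 744 bp and 22.1% of genes. A fold of at least 4 gave 32.5% members, p300 88.3%, 734 bp and 21.3% of genes. Lists of equal length (9798 peaks) gave 42.0% members, p300 89.5%, H3K27ac 91.9%, 821 bp and 19.8% of genes. Keeping 1 kb from Polycomb peaks gave 29.3% members, p300 96.0% and 24.5% of genes. Start windows of 250 bp and 5 kb gave 71.5 and 80.0% of members near a start, and 23.9 and 26.9% of genes. Added after seeing the data, both ends of all protein-coding genes gave 84.3% of members and 23.5% of genes, and autosomal genes alone 26.8%. The CACGTG share of member promoters stayed within its interval in all 6 of its alternatives.

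No paired analysis was possible because each antibody had 1 library. Depth, replicate spread and signal below the peak threshold are unknown.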

Other observations

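Members also stood at genes of non-coding RNA, which were looked at after their values were seen. Of 17 long non-coding RNA genes named Snhg, hosts of small nucleolar RNAs, 14 (82.4%, interval 59.0 to 93.8%) had a member within 1 kb of an end, against 6.27% of 12727 long non-coding RNA genes and 23.5% of 21887 protein-coding genes by the same measure. Snhg17 had the strongest N-MYC peak among them (18.1, EZH2 7.61), and Snhg5 had 14.0 and 6.42. At Snhg9 the EZH2 and N-MYC folds (6.23 and 6.69) were those of the member at Rps2, so a member of a neighbouring coding gene can be counted here. How many of the 14 lay at coding starts was not tested, and the backgrounds were not limited to genes with H3K4me3. Another snoRNA host, Gas5, had 2 members (EZH2 7.81). Small nucleolar RNA genes themselves had a member in 6.42% of 1340, tRNA genes in 6.62% of 408, miRNA genes in 5.21% of 1228 and pseudogenes in 0.302% of 9944. Terc, the RNA template of telomerase, had a member of 6.60 with N-MYC at 5.88. Among miRNA genes, Mirlet7i had a member of 9.99 (N-MYC 9.56) and Mir142, expressed in blood cells, one of 8.11 (N-MYC 3.97). Small RNA genes lie inside host genes, and whether these members belong to a host's start was not tested.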
